A study of Mus musculus with 12 samples.

Results

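Wnt signaling genes were described in cultured neural stem cells (NSCs) of the newborn mouse forebrain, with and without Ncf1, a cytosolic subunit of the NADPH oxidase that makes reactive oxygen species. The members were chosen by name: every gene whose symbol is Wnt, Fzd, Sfrp, Dkk or Rspo followed by a number, and 11 further components and feedback targets (Lrp5, Lrp6, Axin1, Axin2, Lef1, Tcf7, Nkd1, Notum, Wif1, Znrf3 and Rnf43). This rule found 52 of the 45792 genes in the files. They were 19 Wnt ligands, 4 R-spondins, 10 Frizzled receptors, 2 co-receptors, 2 receptor ubiquitin ligases, 10 secreted inhibitors, 3 cytoplasmic inhibitors and 2 TCF/LEF factors. The study compared 4 cultures of WT NSCs, 4 of vehicle-treated Ncf1-/- NSCs and 4 of Ncf1-/- NSCs given recombinant mouse Igfbp2, an insulin-like growth factor binding protein, to ask what the loss of Ncf1 and the addition of Igfbp2 do to early NSC cultures. The labels give the genotype as Ncf1 knockout, the treatment of the WT and vehicle cultures as none, and the dose of Igfbp2 as 100 ng per ml, added 48 h after plating, while the study's methods give a lower dose for the same cultures. RNA was taken 48 h later. The study describes the forebrain cells of each pup as cultured separately. Whether this held for the vehicle libraries could not be checked, because each held Y-linked RNA and Xist RNA together, as given below. The pups were 1 to 2 days old, and the cells were grown in serum-free medium with EGF and FGF to the second passage. The knockout mice had been crossed to C57BL/6J, and the sex of the pups is not given.

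Wnt proteins are secreted, lipid-modified ligands that bind Frizzled receptors at the cell surface. With the co-receptor Lrp5 or Lrp6, binding stops a cytoplasmic complex built on Axin from marking beta-catenin for destruction, and beta-catenin then works with TCF/LEF factors at target genes. Several of these targets are brakes on the same pathway, among them Axin2, Nkd1, Notum, Znrf3 and Rnf43. In the forebrain the pathway is known for patterning, for the expansion of neural progenitors and for restraining the maturation of oligodendrocytes.

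Expected counts, the RSEM estimate of reads per gene, summed to between 18201622 and 34086554 per library. Values below are CPM (counts scaled to a common library size) after TMM scaling, the libraries are named by group and number, and fold changes are log2 values from edgeR with their standard errors. Genes with a Benjamini-Hochberg adjusted p under 0.05 over all genes tested were called. In bulk RNA, fewer cells of a type cannot be told apart from less RNA per cell. Markers of 9 cell types were summed to check the labels. The 9 neural stem and progenitor markers were all above the count filter in these libraries, and 4 of the 6 microglia markers never passed 3 counts in any library. The 10 oligodendrocyte markers summed to 1576 to 9345 CPM in WT, 207 to 263 in vehicle and 218 to 292 in Igfbp2-treated libraries, and 8 of them were called lower and 1 higher in Ncf1-/- than in WT. The 7 astrocyte markers summed to 6466 to 11940, 2446 to 2984 and 2593 to 3562 CPM in the same order, with 6 called lower. The sums of the 6 oligodendrocyte precursor markers (2636 to 4072 CPM in WT and 1985 to 2149 in vehicle, 4 called lower and 2 higher), the 7 neuron markers (597 to 770 and 483 to 547 CPM, 5 lower) and the 6 endothelial markers (4.05 to 6.045 and 2.08 to 3.06 CPM, 1 lower) did not overlap between WT and vehicle either. For each of these 5 lists the exact permutation test gave a two-sided p of 0.0286, the smallest that 4 against 4 allows. The sums of the other lists of cell types overlapped. These lists moved with the genotype, and their part in the results below was not tested. The Ncf1 transcript itself had 1 to 7 counts in each library and could not check the genotype.

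A pair of WT libraries stood apart. WT 11 had the largest total, the lowest sum of oligodendrocyte markers in WT (1576 CPM, against 5160 to 9345 in the other WT libraries) and a sum of neural stem and progenitor markers of 8024 CPM, against 2512 to 3785 in the other WT libraries and 7687 to 8275 in vehicle Ncf1-/-. That sum was mostly Vim (626 to 4569 CPM in WT and 3848 to 4311 in vehicle) and Fabp7. By gene, 6 of the 9 markers were called lower and 2 higher in Ncf1-/- than in WT. Sox2 stood at 371 to 408 CPM in WT and 191 to 199.6 in vehicle. Nes lay the other way, at 118 to 447 CPM in WT and 696 to 960 in vehicle. WT 12 had a sum of 4 Y-linked genes of 6.46 CPM, against 107 to 118 in the other WT libraries, and a sample sheet in the study's supplementary code lists this library as treated with apocynin, while the labels list it as untreated. Y-linked genes summed to 105 to 116 CPM in every vehicle and to 7.80 to 9.18 CPM in every Igfbp2-treated library, so that the treatment and sex-linked expression cannot be told apart, although the study describes these cultures as pairs from the same animals. Xist, the RNA of the inactive X chromosome, had 3.87, 3.89, 5.22 and 291 CPM in WT 9 to 12. It had 72.3 to 87.8 in vehicle and 166 to 275 in Igfbp2-treated libraries. Both comparisons with WT therefore also carried differences in sex-linked expression, and their part in the results was not tested. Each vehicle library held Y-linked RNA and Xist RNA together, and whether it came from a single animal could not be checked. Because WT 11 and WT 12 stood apart, values without WT 11, WT 12 or both are given for the comparisons with WT. They are printed where leaving these libraries out changed the call of a member, or moved the called fold of a member or named pathway gene by over 1.5 times. Calls between treated and vehicle libraries also moved without them. The 3 groups share the filter, the TMM scaling and an estimate of the spread, and the cause of these changes was not tested. Those changes are given mainly as counts, and a member given as not called with Igfbp2 is described by the fit to all libraries.

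Of the 52 members, 33 passed the filter on low counts and were tested. The other 19 were named by their highest count in any library. Wnt3a and Wnt10a had 0 counts everywhere. Wnt1, Wnt10b and Dkk4 had at most 1, Wnt8a, Rspo4, Dkk1 and Dkk2 at most 2, Wnt16 at most 3, Wnt2 and Wnt9b at most 4, Rspo2 and Wif1 at most 6, Wnt8b at most 9, Wnt11 at most 10, Lef1 at most 11, Rspo1 at most 16 and Sfrp5 at most 26. A count of 0 in a library of this depth still allows up to 3 counts, so the genes at 0 were not shown to be absent. Some of the 19 had counts in every library of a group. Sfrp5 had 5 to 26 counts in WT, 2 to 7 in vehicle and 2 to 4 in Igfbp2-treated libraries, and Rspo1 had 2 to 6, 6 to 10 and 9 to 16, below the filter in the fit to all libraries. Rspo1, a secreted amplifier of Wnt signals, passed the filter in 11 of the 12 fits with 1 library left out. There it stood 0.88 to 1.15 above WT in vehicle (log2, called in 6 fits, adjusted p 0.027 to 0.103), 0.72 to 1.002 above vehicle with Igfbp2 (called in 4, adjusted p 0.0451 to 0.129) and 1.70 to 1.97 above WT with Igfbp2 (called in 11, adjusted p 0.000276 to 0.00114). Counts of members called with libraries left out, given below, include Rspo1 where it was called. All 10 Frizzled genes were detected, whereas 10 of the 19 ligands, 3 of the 4 R-spondins and 5 of the 10 secreted inhibitors were not tested. The closest neighbours in the genome among the ligands differed in this respect. On chromosome 1, Wnt6 at chr1:74771892-74785322 was tested and Wnt10a at chr1:74791516-74804179, 6193 bases away, was at 0. On chromosome 11, Wnt9a and Wnt3 were tested while Wnt3a (16175 bases from Wnt9a) and Wnt9b (24328 bases from Wnt3) were not.

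Levels can be compared between genes only per length, and are given here as CPM per kb of effective length. Among the ligands Wnt7b, a forebrain Wnt of the canonical pathway, was highest in each group, at 47.01 ± 33.1 in WT, 56.9 ± 4.23 in vehicle Ncf1-/- and 69.2 ± 6.95 in Igfbp2-treated Ncf1-/- NSCs (SD, n = 4). Its libraries did not overlap those of the next ligand, Wnt7a, which stood at 10.9 ± 1.97, 15.9 ± 1.48 and 21.9 ± 0.656. In WT the ranges of Wnt7a, Wnt5a and Wnt5b overlapped their neighbours in the order, and so did those of Wnt4, Wnt3, Wnt2b and Wnt9a. The order of the receptors differed between the groups. Fzd3, which is known for its part in axon growth and planar cell polarity, led in WT at 41.6 ± 8.01 and was separate from Fzd9 at 17.6 ± 12.2. In vehicle Ncf1-/- NSCs Fzd9 (31.9 ± 4.098) and Fzd3 (25.9 ± 4.04) overlapped, and in Igfbp2-treated NSCs Fzd9 (51.5 ± 10.7) lay above Fzd3 (30.2 ± 2.97) without overlap. Fzd10 moved from the next to last place in WT (1.21 ± 0.705) to the middle of the order in vehicle (7.29 ± 1.04) and Igfbp2-treated (12.7 ± 1.602) cultures. Dkk3 was the highest secreted inhibitor in each group, with 46.99 ± 28.7 in WT.

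**Figure D1:**
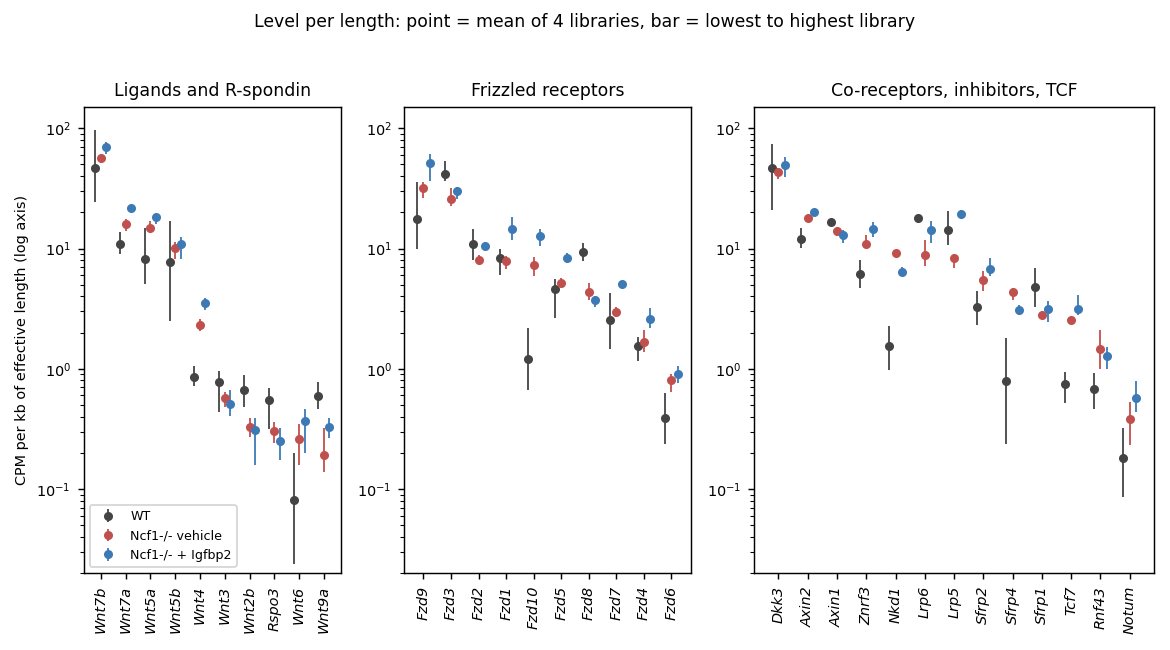
Level of each tested Wnt gene as CPM per kb of effective length on a log axis, for WT (grey), vehicle Ncf1-/- (red) and Igfbp2-treated Ncf1-/- (blue) libraries; points are means of 4 libraries and bars run from the lowest to the highest library. Wnt7b, Fzd3, Fzd9 and Dkk3 lie at the top, and Fzd10 and Nkd1 show wide gaps between WT and both Ncf1-/- groups.

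Between vehicle Ncf1-/- and WT NSCs, 24 of the 33 tested members were called, 14 higher and 10 lower in Ncf1-/-. Among all 15706 genes tested, 57.2% were called (28.9% higher and 28.2% lower), so that a call in this comparison is common. The median log2 fold change was 0.27 over the tested members and 0.02 over all genes. In 19 members the groups did not overlap, and the share of all genes without overlap was 51.2%. Without WT 11 the count was 24 (16 higher, 8 lower), without WT 12 it was 24 (14 and 10), and without both, a choice made after seeing the data, it was 28 (20 and 8). Between Igfbp2-treated and vehicle Ncf1-/- NSCs, 11 of the 33 members were called and all 11 were higher with Igfbp2. There 25.0% of all genes were called, 14.2% higher and 10.7% lower, and 34.1% did not overlap, against 15 of the members. Both comparisons share the vehicle libraries, so their fold changes are not independent. Some members reached the count filter in only part of the groups: Notum only in Igfbp2-treated, Sfrp4 only in the Ncf1-/- groups, Wnt2b and Rspo3 only in WT and vehicle, and Wnt6 in no complete group. Such genes could pass only where they were high. Without these 5 genes, 20 of 28 members were called between the genotypes (12 higher and 8 lower) and 10 of 28 with Igfbp2, all higher. Of the 24 calls between the genotypes, 20 held without WT 11, without WT 12 and without both. Wnt6, Fzd9, Fzd2 and Rspo3 lost theirs in at least 1 of these fits, Wnt7b, Wnt5b, Dkk3, Fzd7, Notum and Rspo1 (log2 fold change 1.35, adjusted p = 0.0451) were called without both and not in the fit to all libraries, and the fold of Sfrp4, Fzd6, Wnt6, Fzd9 and Fzd10 moved by over 1.5 times.

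The direction of the Igfbp2 comparison depends on how the libraries are scaled. With TMM factors the median log2 fold change of all genes was 0.04, with plain library totals −0.23, and with limma on log2(TPM + 1) −0.30. Relative to 0, 27 of the 33 members had a positive fold change with TMM, 19 with library totals and 12 on the TPM scale. Relative to the median of all genes under the same scaling, 25, 25 and 28 members lay above it. The calls followed the scaling: 6 members passed with library totals (3 higher and 3 lower) and 6 on log2(TPM + 1) (1 higher and 5 lower), against 11 with TMM. Leaving out single libraries also moved the count of 11. It was 6 without vehicle 1, 5 without vehicle 2, 6 without vehicle 3, 7 without Igfbp2-treated 6, 5 without Igfbp2-treated 7 and 17 without WT 11. With WT left out of the fit, 17 members were called (15 higher and 2 lower). With vehicle 1 to 4 paired in order with Igfbp2-treated 5 to 8 as a block in that fit it was 16 (14 and 2). The library titles name no pairs, and Y-linked genes were high in each vehicle and low in each treated library. The block can therefore not be taken as matching animals. Changes with Igfbp2 are therefore given below as changes relative to the bulk of genes under TMM.

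**Figure D2:**
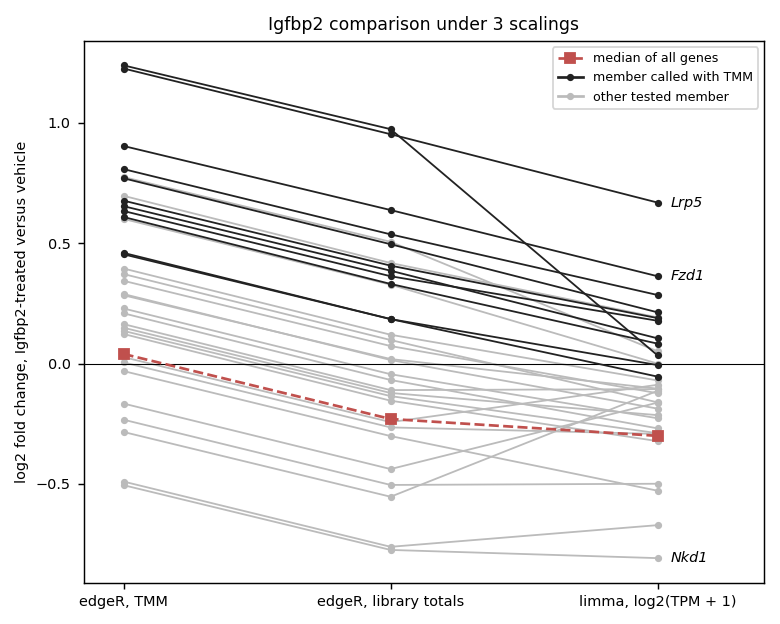
Log2 fold change of the 33 tested members between Igfbp2-treated and vehicle Ncf1-/- NSCs under 3 scalings, with the 11 members called under TMM in black, the other 22 in grey and the median of all genes as a dashed red line. The whole set moves down together with the median of all genes, from 0.04 to −0.23 and −0.30, and most members stay above it.

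**Figure D3:**
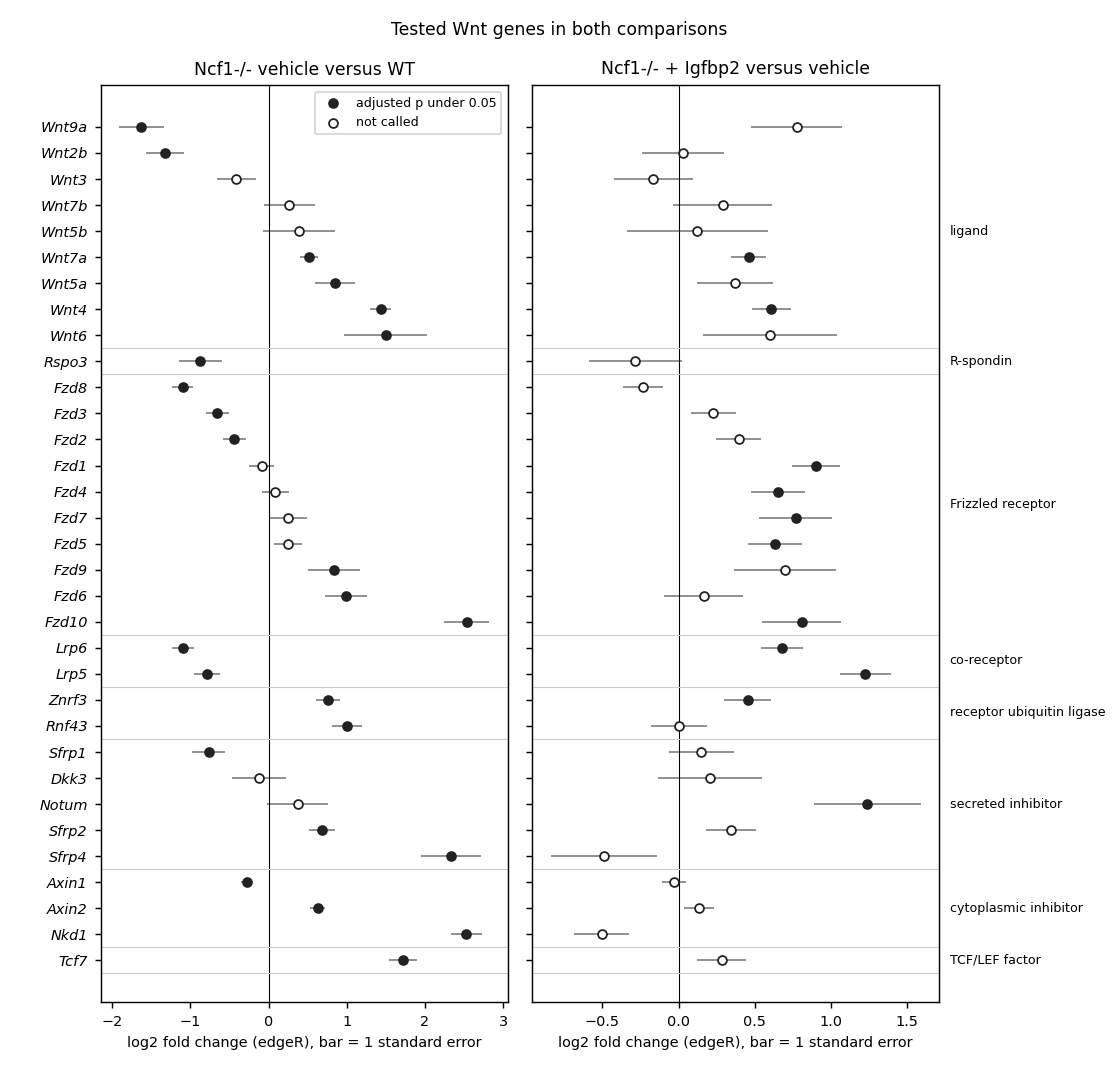
Log2 fold changes of the 33 tested members by role, for vehicle Ncf1-/- against WT (left) and for Igfbp2-treated against vehicle Ncf1-/- (right); filled points have an adjusted p under 0.05 and bars are 1 standard error. Fzd10, Nkd1 and Sfrp4 lie farthest to the right between the genotypes, and both co-receptors lie left of 0 in the first panel and right of 0 in the second.

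Of the 9 tested ligands, 4 were higher and 2 lower in Ncf1-/- than in WT, and 3 were not called, a share near the 57.2% of all genes. Wnt4, a ligand known mainly for signaling through beta-catenin-independent routes and for roles in organ formation, had 2.91, 4.21, 3.499 and 3.06 in WT 9 to 12, 8.28, 10.5, 8.65 and 9.51 in vehicle 1 to 4 and 13.8, 14.5, 12.4 and 15.6 in Igfbp2-treated 5 to 8. Its 3 groups did not overlap. Wnt4 was 2.698 times as high in vehicle Ncf1-/- as in WT (log2 fold change 1.43 ± 0.14, adjusted p = 1.94e-06) and a further 1.52 times as high with Igfbp2 (log2 fold change 0.61 ± 0.13, adjusted p = 0.00548). The second difference was not called with library totals, at 0.33 (adjusted p = 0.0624), or on log2(TPM + 1), at 0.08 (adjusted p = 0.545). Wnt7a, a forebrain ligand that supports progenitor self-renewal, had 27.2, 32.2, 41.1 and 30.8 in WT 9 to 12, 42.1, 44.9, 49.7 and 52.05 in vehicle 1 to 4 and 66.95, 67.8, 61.5 and 63.4 in Igfbp2-treated 5 to 8. It rose in the same order with smaller steps, log2 fold change 0.52 ± 0.11, adjusted p = 0.00167 between the genotypes and log2 fold change 0.46 ± 0.11, adjusted p = 0.0126 with Igfbp2, although on the log2(TPM + 1) scale the second value was −0.01. Wnt5a, the best known activator of beta-catenin-independent signaling, had 24.1, 28.2, 68.6 and 35.1 in WT 9 to 12, 63.1, 71.1, 64.4 and 83.3 in vehicle 1 to 4 and 82.2, 95.7, 91.6 and 95.5 in Igfbp2-treated 5 to 8. WT 11 lay within the vehicle range and the other WT libraries below it. Wnt5a was higher in Ncf1-/- (log2 fold change 0.85 ± 0.25, adjusted p = 0.0117) and its difference with Igfbp2 did not pass (log2 fold change 0.37 ± 0.25, adjusted p = 0.293).

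A pair of ligands at low levels was lower without Ncf1. Wnt9a had 1.46, 2.43, 1.86 and 1.78 in WT 9 to 12, 0.523, 0.435, 1.01 and 0.448 in vehicle 1 to 4 and 0.831, 1.08, 1.004 and 1.23 in Igfbp2-treated 5 to 8, and Wnt2b had 1.91, 2.699, 1.41 and 1.84 in WT 9 to 12, 0.697, 0.822, 0.751 and 0.821 in vehicle 1 to 4 and 0.498, 0.901, 0.813 and 0.933 in Igfbp2-treated 5 to 8. WT did not overlap vehicle for either gene, with differences of −1.63 ± 0.28 (adjusted p = 0.000289) for Wnt9a and −1.32 ± 0.25 (adjusted p = 0.000487) for Wnt2b. With Igfbp2, Wnt9a stood at 0.78 ± 0.30 (adjusted p = 0.0748) and Wnt2b at 0.03 ± 0.27 (adjusted p = 0.953), neither of them called. Wnt6 was close to the limit of detection in WT, with CPM of 0.0455, 0.05397, 0.316 and 0.111 in WT, 0.523, 0.2903, 0.662 and 0.298 in vehicle and 0.775, 0.661, 0.383 and 0.884 in Igfbp2-treated libraries. Its genotype difference (log2 fold change 1.5 ± 0.53, adjusted p = 0.0273) was lost without any 1 of WT 9, WT 10, WT 12, vehicle 1 or vehicle 3, at adjusted p up to 0.0858. Without WT 11 it was 2.59 (adjusted p = 0.00184), and without WT 11 and WT 12 2.98 (adjusted p = 0.00347), against WT libraries with few counts.

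Wnt3, Wnt5b and Wnt7b were not called in any comparison with all libraries in the fit. Wnt7b had CPM of 79.9, 95.9, 313 and 128 in WT, 193, 184, 199.6 and 166 in vehicle and 219.8, 251, 198 and 238 in Igfbp2-treated libraries. WT 11 was above every other library and the other WT libraries below every Ncf1-/- library. Wnt5b, a ligand of the same subfamily as Wnt5a, had 5.503, 5.397, 36.3 and 19.04 in WT, where WT 11 was again the highest of all, and 23.8, 21.5, 24.7 and 17.98 in vehicle. Without WT 11 the genotype difference of Wnt7b was 0.88 (adjusted p = 0.000142), against 0.27 ± 0.33 (adjusted p = 0.506) with it, and that of Wnt5b 1.15 (adjusted p = 0.0118), against 0.39 ± 0.46 (adjusted p = 0.497). Without both WT 11 and WT 12 they were 1.03 (adjusted p = 5.52e-06) and 1.96 (adjusted p = 5.44e-07). Wnt3 averaged 2.24 ± 0.724 CPM in WT and 1.66 ± 0.215 in vehicle, with overlapping groups, and the genotype difference was −0.41 ± 0.25 (adjusted p = 0.173), or −0.61 (adjusted p = 0.0292) without WT 9.

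Rspo3 was the 1 tested R-spondin, a family of secreted proteins that strengthen Wnt signaling by clearing Znrf3 and Rnf43 from the cell surface. It had 1.27, 0.702, 1.55 and 1.39 in WT 9 to 12, 0.741, 0.532, 0.795 and 0.634 in vehicle 1 to 4 and 0.388, 0.721, 0.478 and 0.638 in Igfbp2-treated 5 to 8, and the groups overlapped. Rspo3 was lower in Ncf1-/- (log2 fold change −0.87 ± 0.27, adjusted p = 0.015), a call that was lost without vehicle 2, at −0.78 (adjusted p = 0.0502), or without WT 11, at −0.73 (adjusted p = 0.0508). Without WT 11 and WT 12 it was −0.60 (adjusted p = 0.151). With Igfbp2 its difference was −0.28 ± 0.30 (adjusted p = 0.518).

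**Figure D4:**
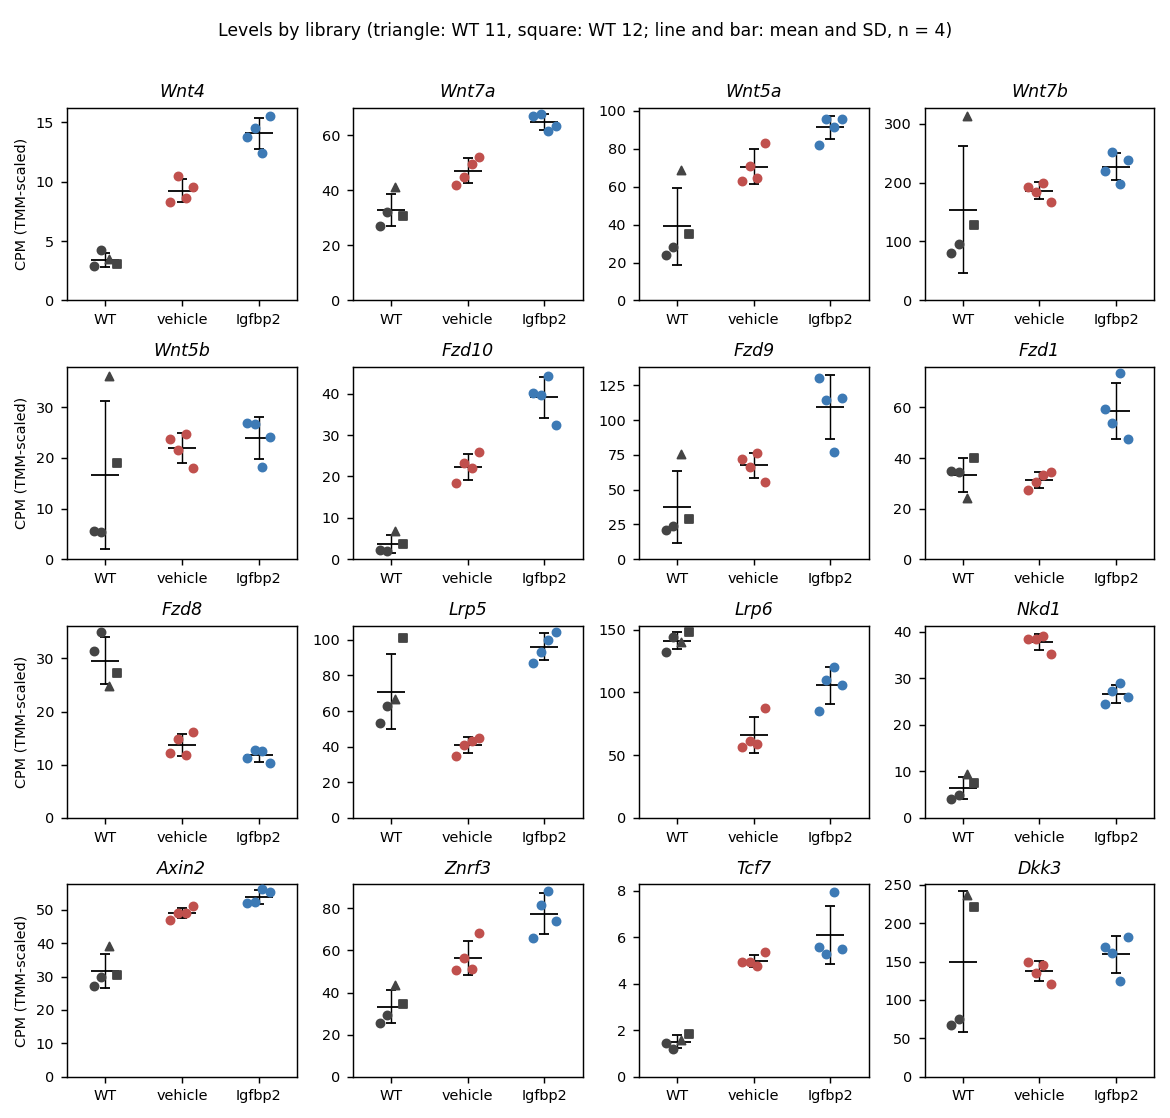
CPM after TMM scaling in each library for 16 members, with WT in grey (WT 11 as a triangle, WT 12 as a square), vehicle Ncf1-/- in red and Igfbp2-treated Ncf1-/- in blue, and the mean with its SD (n = 4) as a line and bar. Axes start at 0. WT 11 lies among or above the Ncf1-/- libraries for Wnt5a, Wnt7b, Wnt5b, Fzd9 and Dkk3 and with the other WT libraries for Wnt4, Nkd1, Fzd8 and Lrp6.

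Of the 10 Frizzled receptors, 3 were higher and 3 lower in Ncf1-/- and 4 were not called, a share near the 57.2% of all genes. Fzd10 had the largest difference of the family. It lies at chr5:128600844-128604093 (GRCm38) and had 2.27, 2.05, 6.77 and 3.79 in WT 9 to 12, 18.3, 23.3, 21.99 and 25.9 in vehicle 1 to 4 and 40.1, 39.7, 44.3 and 32.5 in Igfbp2-treated 5 to 8. No groups overlapped, and the level was 5.79 times that of WT in vehicle Ncf1-/- cultures (log2 fold change 2.53 ± 0.29, adjusted p = 8.63e-06) and 10.1 times that of WT with Igfbp2 (log2 fold change 3.34 ± 0.29, adjusted p = 1.05e-06). With neither WT 11 nor WT 12 these differences were 3.32 (adjusted p = 3.95e-09) and 4.09 (adjusted p = 4.27e-10). Fzd6, a receptor of planar cell polarity, had 1.05, 0.917, 2.44 and 1.73 in WT 9 to 12, 3.57, 3.24, 3.22 and 2.5 in vehicle 1 to 4 and 4.15, 3.49, 2.96 and 3.44 in Igfbp2-treated 5 to 8, and each WT library was below each vehicle library (log2 fold change 0.99 ± 0.27, adjusted p = 0.00637), with a difference of 1.61 (adjusted p = 4.69e-05) without WT 11 and WT 12. Fzd9 had 20.9, 24.02, 75.9 and 29.2 in WT 9 to 12, 72.1, 66.1, 76.03 and 55.6 in vehicle 1 to 4 and 130.3, 115, 76.99 and 116 in Igfbp2-treated 5 to 8, so that WT 11 lay within the vehicle range and the other WT libraries below it. The call for Fzd9 (log2 fold change 0.84 ± 0.34, adjusted p = 0.0475) was lost without any 1 of 9 libraries (vehicle 1 to 4, Igfbp2-treated 5 and 6, WT 9, WT 10 and WT 12, adjusted p up to 0.119). It was 1.45 (adjusted p = 1.05e-05) without WT 11 and 1.54 (adjusted p = 7.69e-06) without WT 11 and WT 12.

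Fzd8, Fzd3 and Fzd2 were lower without Ncf1. Fzd8, a receptor for canonical Wnt ligands, had 31.4, 34.9, 24.8 and 27.2 in WT 9 to 12, 12.2, 14.8, 11.9 and 16.2 in vehicle 1 to 4 and 11.2, 12.9, 12.7 and 10.3 in Igfbp2-treated 5 to 8, and WT did not overlap either Ncf1-/- group. It fell in vehicle Ncf1-/- (log2 fold change −1.1 ± 0.13, adjusted p = 1.37e-05), and the difference with Igfbp2 was −0.23 ± 0.13 (adjusted p = 0.218). Fzd3 had 139, 149, 213 and 146 in WT 9 to 12, 90.7, 96.7, 98.1 and 126 in vehicle 1 to 4 and 102, 129, 125 and 126 in Igfbp2-treated 5 to 8, with WT above vehicle in every library (log2 fold change −0.66 ± 0.14, adjusted p = 0.00178). Fzd2 had 28.3, 32.6, 50.4 and 40.3 in WT 9 to 12, 25.6, 27.5, 28.4 and 30.7 in vehicle 1 to 4 and 39.9, 37.6, 34.6 and 35.5 in Igfbp2-treated 5 to 8, where WT 9 lay within the vehicle range and the other WT libraries above it. The call for Fzd2 (log2 fold change −0.44 ± 0.14, adjusted p = 0.0202) was lost without WT 11, at −0.26 (adjusted p = 0.0571), or without vehicle 1, at −0.39 (adjusted p = 0.0595). Without WT 11 and WT 12 it was −0.17 (adjusted p = 0.142).

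With Igfbp2, 5 of the 10 Frizzled genes were called under TMM and all 5 were higher than in vehicle, where 25.0% of all genes were called and 14.2% were higher. With library totals Fzd1 alone of the 5 was called, and on log2(TPM + 1) none was, with adjusted p of 0.159 to 0.587. Fzd1 had 35.02, 34.5, 24.1 and 40.1 in WT 9 to 12, 27.3, 30.4, 33.2 and 34.5 in vehicle 1 to 4 and 59.5, 53.9, 73.6 and 47.6 in Igfbp2-treated 5 to 8. Every Igfbp2-treated library was above every WT and vehicle library, 1.87 times the vehicle level (log2 fold change 0.90 ± 0.16, adjusted p = 0.00248), and WT and vehicle did not differ beyond their spread (log2 fold change −0.09 ± 0.16, adjusted p = 0.656). Fzd7, a receptor expressed in many progenitor cells, had 6.32, 8.37, 10.8 and 18.7 in WT 9 to 12, 12.2, 11.7, 14.1 and 14.1 in vehicle 1 to 4 and 22.4, 23.7, 20.6 and 22.2 in Igfbp2-treated 5 to 8. Each treated library was above every WT and vehicle library (log2 fold change 0.77 ± 0.24, adjusted p = 0.034). The genotype difference of Fzd7 was 0.24 ± 0.24 (adjusted p = 0.411), 0.58 (adjusted p = 0.00496) without WT 12 and 0.79 (adjusted p = 0.000154) without WT 11 and WT 12. Fzd5 had 25.6, 29.4, 14.9 and 28.4 in WT 9 to 12, 26.7, 27.6, 27.02 and 34.9 in vehicle 1 to 4 and 41.1, 49.4, 47.9 and 42.1 in Igfbp2-treated 5 to 8, and Fzd4, which also serves the ligand Norrin, had 5.18, 4.102, 6.14 and 6.51 in WT 9 to 12, 4.83, 5.32, 5.78 and 7.39 in vehicle 1 to 4 and 7.697, 8.59, 11.2 and 9.28 in Igfbp2-treated 5 to 8. In both genes the treated libraries did not overlap vehicle, by 0.63 ± 0.18 (adjusted p = 0.0211) for Fzd5 and 0.65 ± 0.18 (adjusted p = 0.0186) for Fzd4. Fzd10 rose as well (log2 fold change 0.81 ± 0.26, adjusted p = 0.0373). Of these 5, only Fzd1 stayed called with every library left out in turn. Fzd7 and Fzd10 were lost without any 1 of vehicle 1 to 3 or Igfbp2-treated 5 to 8 (adjusted p up to 0.0923 and 0.106), Fzd5 without vehicle 1 to 3 or Igfbp2-treated 6 or 7 (up to 0.0818), and Fzd4 without vehicle 1 to 3 or Igfbp2-treated 7 (up to 0.0692). Fzd9 and Fzd2 did not overlap between treated and vehicle libraries either, but their differences of 0.70 ± 0.33 (adjusted p = 0.141) and 0.40 ± 0.15 (adjusted p = 0.0639) were not called.

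Both co-receptors were lower in Ncf1-/- NSCs and higher with Igfbp2. Lrp5 and Lrp6 are single-pass receptors that pair with Frizzled and carry the signal to Axin. Lrp5, at chr19:3584828-3686564, had 53.3, 62.6, 66.8 and 101 in WT 9 to 12, 34.7, 41.03, 43.4 and 45.1 in vehicle 1 to 4 and 87.1, 93.2, 99.7 and 104 in Igfbp2-treated 5 to 8. Each vehicle library was below each WT and each treated library, with a genotype difference of −0.79 ± 0.16 (adjusted p = 0.00114) and a rise of 1.23 ± 0.17 (adjusted p = 0.000869) with Igfbp2, a factor of 2.34. The treated level was above the WT mean (log2 fold change 0.44 ± 0.16, adjusted p = 0.0315), but overlapped WT 12, and that call was lost without any 1 of 8 libraries (vehicle 3, Igfbp2-treated 5 to 8, WT 9, WT 10 and WT 11, adjusted p up to 0.131). Lrp6, at chr6:134446476-134566965, had 132, 144, 139.8 and 148 in WT 9 to 12, 56.6, 61.1, 58.6 and 87.6 in vehicle 1 to 4 and 85.3, 110.1, 120.5 and 106 in Igfbp2-treated 5 to 8. WT was above every Ncf1-/- library, with a genotype difference of −1.1 ± 0.14 (adjusted p = 2.24e-05). With Igfbp2 the level rose (log2 fold change 0.68 ± 0.14, adjusted p = 0.00523), though vehicle 4 overlapped the treated group, and it stayed below WT (log2 fold change −0.42 ± 0.14, adjusted p = 0.0179). Both rises with Igfbp2 stayed called with each library left out in turn. With library totals the difference was 0.95 (adjusted p = 0.00135) for Lrp5 and 0.41 (adjusted p = 0.0529) for Lrp6, and on log2(TPM + 1) 0.67 (adjusted p = 0.0252) and 0.19 (adjusted p = 0.513). Since both differences of each gene use the same vehicle libraries, a low vehicle value moves them in opposite directions.

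Znrf3 and Rnf43, membrane ubiquitin ligases that remove Frizzled receptors from the surface and are themselves Wnt targets, were higher without Ncf1. Znrf3 had 25.5, 29.5, 43.5 and 34.6 in WT 9 to 12, 50.5, 56.3, 51.04 and 68.1 in vehicle 1 to 4 and 65.95, 81.7, 88.2 and 73.8 in Igfbp2-treated 5 to 8, with WT below vehicle in every library (log2 fold change 0.76 ± 0.16, adjusted p = 0.00104). Rnf43 had 1.32, 2.05, 2.01 and 1.23 in WT 9 to 12, 3.96, 3.39, 2.74 and 3.25 in vehicle 1 to 4 and 3.38, 3.37, 3.3 and 3.34 in Igfbp2-treated 5 to 8, a level 1.999 times that of WT in vehicle cultures (log2 fold change 1.0 ± 0.19, adjusted p = 0.000626). With Igfbp2, Znrf3 passed the threshold narrowly (log2 fold change 0.45 ± 0.15, adjusted p = 0.0482), a call lost without any 1 of 8 libraries (vehicle 1 to 3, Igfbp2-treated 6 to 8, WT 10 and WT 12, adjusted p up to 0.153) and of opposite sign on the log2(TPM + 1) scale (−0.05). Rnf43 showed no difference beyond its spread (log2 fold change 0.01 ± 0.18, adjusted p = 0.987).

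The secreted inhibitors moved in both directions between the genotypes. Sfrp proteins resemble the Wnt-binding part of Frizzled and bind Wnt ligands outside the cell. Sfrp4 had 1.001, 0.378, 2.84 and 0.835 in WT 9 to 12, 5.92, 7.16, 7.46 and 6.902 in vehicle 1 to 4 and 4.596, 5.11, 5.36 and 4.47 in Igfbp2-treated 5 to 8, and its vehicle level was 5.03 times that of WT (log2 fold change 2.33 ± 0.38, adjusted p = 0.000176). WT 11 had the highest WT level, and the difference was 3.19 (adjusted p = 8.57e-08) without it and 3.21 (adjusted p = 1.38e-07) without WT 11 and WT 12. Treated libraries lay below vehicle without overlap, but the difference was not called (log2 fold change −0.49 ± 0.35, adjusted p = 0.319). Sfrp2 had 4.59, 3.62, 5.97 and 6.85 in WT 9 to 12, 8.41, 8.03, 8.08 and 9.402 in vehicle 1 to 4 and 12.02, 9.56, 11.6 and 9.92 in Igfbp2-treated 5 to 8, with the 3 groups in rising order and no overlap, called between the genotypes (log2 fold change 0.69 ± 0.17, adjusted p = 0.00358) and not with Igfbp2 (log2 fold change 0.34 ± 0.17, adjusted p = 0.143), where log2(TPM + 1) gave the opposite sign, −0.12 (adjusted p = 0.651). Sfrp1 had 23.2, 28.98, 14.7 and 13.7 in WT 9 to 12, 11.2, 11.8, 11.8 and 12.6 in vehicle 1 to 4 and 15.4, 12.3, 14.4 and 10.3 in Igfbp2-treated 5 to 8, where WT 9 and WT 10 were well above the rest and WT 11 and WT 12 just above vehicle, and it was lower in Ncf1-/- (log2 fold change −0.76 ± 0.21, adjusted p = 0.00736).

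Notum, a secreted enzyme that removes the lipid from Wnt ligands, had 0.227, 0.108, 0.402 and 0.612 in WT 9 to 12, 0.348, 0.484, 0.486 and 0.448 in vehicle 1 to 4 and 1.11, 0.901, 1.34 and 0.835 in Igfbp2-treated 5 to 8. It was 2.36 times as high with Igfbp2 as with vehicle (log2 fold change 1.24 ± 0.35, adjusted p = 0.0223), at counts of at most 28 per library. That call was lost without vehicle 1, 2 or 3 or Igfbp2-treated 5 or 7 (adjusted p up to 0.0745), and on log2(TPM + 1), at 0.03 (adjusted p = 0.745). Between the genotypes Notum stood at 0.37 ± 0.39 (adjusted p = 0.438), and at 1.28 (adjusted p = 0.032) without WT 11 and WT 12. Dkk3, a member of the Dickkopf family that does not act on Lrp6 as Dkk1 does, had CPM of 67.2, 74.6, 237 and 221 in WT, 149.9, 136, 145 and 121 in vehicle and 169, 161, 125 and 182 in treated libraries. WT 11 and WT 12 were above, and WT 9 and WT 10 below, every Ncf1-/- library, and the genotype difference was −0.12 ± 0.34 (adjusted p = 0.78). Without WT 11 and WT 12 it was 0.91 (adjusted p = 6.35e-05).

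Among the cytoplasmic inhibitors, Axin1 fell and Axin2 and Nkd1 rose in Ncf1-/- NSCs. Axin1 and Axin2 are scaffolds of the complex that destroys beta-catenin, and Axin2 is the most widely used reporter of beta-catenin activity. Axin2, at chr11:108920349-108950783, had 27.3, 29.9, 39.1 and 30.4 in WT 9 to 12, 47.05, 49.1, 48.96 and 50.96 in vehicle 1 to 4 and 51.9, 52.2, 56.1 and 55.2 in Igfbp2-treated 5 to 8, so that WT was below vehicle in every library (log2 fold change 0.63 ± 0.10, adjusted p = 0.000114). With Igfbp2 its libraries lay above vehicle without overlap, by an amount that was not called (log2 fold change 0.14 ± 0.10, adjusted p = 0.316) and that had the opposite sign with library totals, at −0.14 (adjusted p = 0.377). Axin1 had 51.1, 51.1, 47.4 and 52.3 in WT 9 to 12, 42.6, 40.98, 43.6 and 39.4 in vehicle 1 to 4 and 42.9, 41.7, 43.1 and 35.2 in Igfbp2-treated 5 to 8 and differed from WT by a small amount (log2 fold change −0.28 ± 0.08, adjusted p = 0.00716) that was not called with library totals, at −0.10 (adjusted p = 0.343), or on log2(TPM + 1), at −0.18 (adjusted p = 0.38). Nkd1, an inducible inhibitor that binds Dishevelled, lies at chr8:88521354-88594884 and had 4.05, 5.02, 9.35 and 7.46 in WT 9 to 12, 38.5, 38.5, 38.99 and 35.2 in vehicle 1 to 4 and 24.4, 27.2, 28.9 and 25.9 in Igfbp2-treated 5 to 8. The vehicle level was 5.77 times that of WT (log2 fold change 2.53 ± 0.20, adjusted p = 4.46e-07). Each treated library was below each vehicle library, yet the difference of −0.51 ± 0.18 (adjusted p = 0.0578) just missed the threshold. It passed by DESeq2, at −0.52 (adjusted p = 0.0237), with WT left out of the fit, at −0.55 (adjusted p = 0.000256), and with the replicate block, at −0.55 (adjusted p = 0.00124). It passed as well with library totals, at −0.77 (adjusted p = 0.00908), and without any 1 WT library.

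Tcf7, which encodes the TCF/LEF factor TCF1 and is itself a Wnt target, had 1.46, 1.19, 1.58 and 1.84 in WT 9 to 12, 4.92, 4.93, 4.77 and 5.37 in vehicle 1 to 4 and 5.59, 5.29, 7.94 and 5.499 in Igfbp2-treated 5 to 8. WT did not overlap the Ncf1-/- groups, and vehicle stood at 3.29 times the WT level (log2 fold change 1.72 ± 0.17, adjusted p = 3.45e-06). The treated libraries overlapped vehicle (log2 fold change 0.28 ± 0.16, adjusted p = 0.206). Lef1, its relative, was not tested. Of the 7 members here that are both feedback brakes or effectors and known targets of the pathway (Axin2, Nkd1, Notum, Znrf3, Rnf43, Tcf7 and Lef1), 5 were higher in Ncf1-/- than in WT, Notum was not called and Lef1 was not tested. This grouping was made after the values were known, and 28.9% of all genes were called higher in this comparison.

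Igfbp2-treated Ncf1-/- NSCs differed from WT in 28 of the 33 tested members, 20 higher and 8 lower, where 62.4% of all genes were called (31.6% higher and 30.8% lower). Of the Frizzled genes 7 were higher and 2 lower than in WT. Fzd2 was not called (log2 fold change −0.04 ± 0.14, adjusted p = 0.81), and Wnt3, Wnt5b, Wnt7b and Dkk3 were not called either. The count was 32 without WT 11 and WT 12, with 24 higher and 8 lower. Those called there and not in the fit to all libraries were Wnt7b at 1.28 (adjusted p = 6.53e-07), Wnt5b at 2.05 (adjusted p = 3.35e-07), Dkk3 at 1.08 (adjusted p = 1.27e-05) and Rspo1. In 25 members the libraries did not overlap, and this held for 54.3% of all genes. On log2(TPM + 1) the calls were 12 higher and 9 lower. Without the 5 genes that reached the count filter in only part of the groups, 23 of 28 members were called (17 higher and 6 lower). Of the 28 calls, 26 held without WT 11, without WT 12 and without both, and those of Fzd3 and Lrp5 were lost without WT 11 (adjusted p = 0.0636 and 0.0554). Without WT 11 and WT 12 the difference from WT moved from 1.84 ± 0.39 (adjusted p = 0.00108) to 2.69 (adjusted p = 1.04e-06) for Sfrp4, from 2.1 ± 0.51 (adjusted p = 0.00313) to 3.54 (adjusted p = 0.000633) for Wnt6, from 1.61 ± 0.36 (adjusted p = 0.00178) to 2.49 (adjusted p = 0.000221) for Notum and from 1.53 ± 0.34 (adjusted p = 0.00159) to 2.2 (adjusted p = 2.72e-07) for Fzd9. Lrp6 was called lower than WT with each library left out in turn.

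The start regions of 33 of the 52 members, not all of them among the tested genes, could be searched for the letters that TCF/LEF factors bind, CTTTGAT or CTTTGTT on either strand, since several members are known targets of these factors. The windows were the 250 bases before the RefSeq start. A match stood in 4 of 41 windows of members (9.8%) and in 8.1% of all 32851 windows of the table. The 4 members were Fzd7, Wnt5b, Wnt11 and Dkk1, of which only the first 2 were expressed above the filter. Fzd7, which rose with Igfbp2, and Wnt5b, whose highest library was WT 11, are shown with the match in capitals, beside Axin2, which rose without Ncf1 and holds neither motif in this window:
Fzd7 (GRCm38.p6, chr1:59481897-59482146, + strand): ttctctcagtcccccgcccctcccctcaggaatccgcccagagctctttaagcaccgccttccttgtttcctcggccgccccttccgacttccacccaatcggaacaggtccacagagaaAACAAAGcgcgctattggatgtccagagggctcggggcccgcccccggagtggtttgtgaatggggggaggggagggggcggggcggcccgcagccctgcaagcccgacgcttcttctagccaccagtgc
Wnt5b (GRCm38.p6, chr6:119449387-119449636, - strand): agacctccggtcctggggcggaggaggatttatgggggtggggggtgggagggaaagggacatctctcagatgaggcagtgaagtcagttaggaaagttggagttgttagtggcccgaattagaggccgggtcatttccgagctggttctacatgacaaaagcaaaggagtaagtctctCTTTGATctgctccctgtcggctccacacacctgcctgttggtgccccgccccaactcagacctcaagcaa
Axin2 (GRCm38.p6, chr11:108920099-108920348, + strand): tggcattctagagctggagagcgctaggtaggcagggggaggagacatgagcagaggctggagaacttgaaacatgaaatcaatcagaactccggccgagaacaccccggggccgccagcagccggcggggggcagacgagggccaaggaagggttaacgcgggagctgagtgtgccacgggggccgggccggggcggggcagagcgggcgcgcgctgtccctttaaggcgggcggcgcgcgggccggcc
The match of Fzd7 begins 130 bases before the start and is the reverse strand of CTTTGTT, and that of Wnt5b begins 71 bases before 1 of its 3 starts. No match was found in the windows of Nkd1, Tcf7, Rnf43, Wnt4, Wnt7a or Fzd10, which says only that these letters are not there.

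The pathway has many components beyond the named families, and 80 further genes in 6 lists were examined, of which 71 were tested. Between vehicle Ncf1-/- and WT, 16 were higher and 33 lower, and 57.2% of all genes were called. Without the 6 of the 71 that reached the count filter in only part of the groups (Lgr6, Sostdc1, Nkd2, Prickle3, Sp5 and Neurod1) it was 12 and 32 of 65. Of the 49 calls, 46 held without WT 11, without WT 12 and without both. The TCF factors and nuclear cofactors moved mostly down, with 10 of 13 lower and 2 higher. Tcf7l2, the main TCF factor of the brain and one also linked to oligodendrocyte differentiation, had CPM of 243, 256, 123 and 236 in WT and 38.9, 40.6, 37 and 41.7 in vehicle libraries (log2 fold change −2.44 ± 0.19, adjusted p = 3.97e-07). Tcf7l1, which acts mainly as a repressor, had 96.2, 103, 86.5 and 92.2 and 21.8, 21.7, 26.4 and 21.1 (log2 fold change −2.05 ± 0.09, adjusted p = 1.34e-08). Neither gene's WT libraries overlapped vehicle, and WT 11 had the lowest WT level of Tcf7l2. Against this direction, the corepressor gene Tle2 was higher, at 5.37, 6.37, 4.42 and 4.73 in WT and 26.8, 26.6, 19.96 and 20.9 in vehicle (log2 fold change 2.18 ± 0.14, adjusted p = 1.01e-07).

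In the planar cell polarity list, which holds the genes of the branch that orients cells in a sheet, 7 of 11 were lower and 2 higher. Over all genes tested, 28.2% were called lower and 28.9% higher. Prickle1 had 80.4, 109, 15.9 and 42.3 CPM in WT and 2.96, 2.42, 3.797 and 3.69 in vehicle (log2 fold change −4.25 ± 0.48, adjusted p = 8.34e-06), and Celsr1 158, 179.7, 137 and 160.5 and 26.3, 27, 28.8 and 35.6 (log2 fold change −2.43 ± 0.16, adjusted p = 1.01e-07). Among the destruction complex and Dishevelled genes 9 of 18 were lower and 1, the Dishevelled partner Dact1, was higher (log2 fold change 1.42 ± 0.20, adjusted p = 4.3e-05). The share called in this list, 55.6%, was near the 57.2% of all genes. Beta-catenin itself, Ctnnb1, was at 789.7 ± 82.8 CPM in WT and 772 ± 16.9 in vehicle, a difference within the spread (log2 fold change −0.03 ± 0.09, adjusted p = 0.78). Further inhibitors outside the Sfrp and Dkk families had 3 higher and 3 lower of 7 tested. Igfbp4, a binding protein of the Igfbp2 family that also blocks Wnt co-receptors, had 7.59, 6.64, 22.4 and 24.8 in WT and 152, 168, 175 and 178 in vehicle (log2 fold change 3.45 ± 0.36, adjusted p = 4.05e-06), Shisa3, which holds Frizzled inside the cell, had 1.96, 1.67, 7.63 and 2.17 and 28.01, 30.7, 35.9 and 36.1 (log2 fold change 3.19 ± 0.36, adjusted p = 9.3e-06), and its relative Shisa2 had 5.05, 6.58, 1.23 and 2.78 and 0.697, 0.629, 0.839 and 1.04 (log2 fold change −2.25 ± 0.43, adjusted p = 0.000597). For all 3 genes WT 11 or WT 12 was the WT library nearest to vehicle. Without both, the differences were 4.51 (adjusted p = 2.48e-12) for Igfbp4, 4.11 (adjusted p = 1.15e-10) for Shisa3 and −2.88 (adjusted p = 1.98e-07) for Shisa2, and that of Prickle1 was −4.92 (adjusted p = 1.2e-11). Without WT 11 alone that of Shisa3 was 4.08 (adjusted p = 1.23e-10).

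Of the genes needed to make and secrete Wnt ligands, Porcn, which attaches the lipid, had 21.7 ± 1.91 CPM in WT and 12.4 ± 0.557 in vehicle (log2 fold change −0.81 ± 0.09, adjusted p = 5.12e-06), and Wls, which carries the ligand to the surface, 38.4 ± 2.21 and 59.5 ± 4.25 (log2 fold change 0.63 ± 0.07, adjusted p = 7.65e-06). With Igfbp2 the differences were 0.30 ± 0.09 (adjusted p = 0.0266) for Porcn and −0.24 ± 0.07 (adjusted p = 0.0256) for Wls, though Porcn was −0.18 (adjusted p = 0.346) on the log2(TPM + 1) scale. In that list of secretion genes and co-receptors 4 of 14 were higher and 3 lower between the genotypes. Of 8 tested further targets 4 were higher and 1 lower, and of the 6 that reached the count filter in each group 3 were higher and 0 lower (57.2% of all genes called). The cell cycle gene Ccnd1 had 70.2, 78.4, 68.2 and 51.3 in WT and 398, 494, 546 and 692 in vehicle (log2 fold change 2.99 ± 0.21, adjusted p = 2.07e-07).

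**Figure D5:**
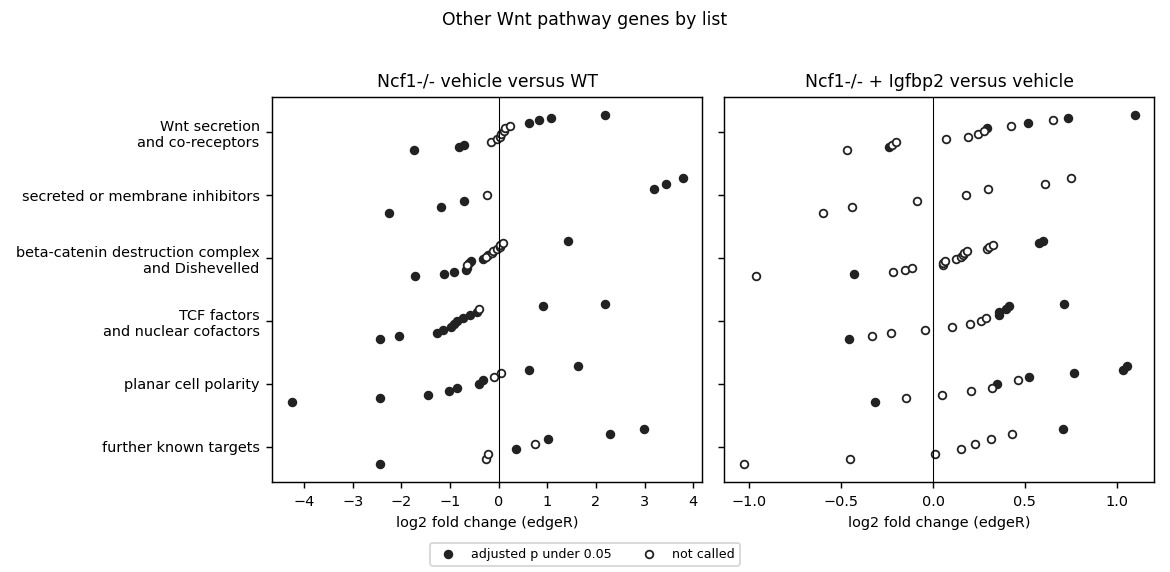
Log2 fold changes of the 71 tested further pathway genes in 6 lists, for vehicle Ncf1-/- against WT (left) and Igfbp2-treated against vehicle Ncf1-/- (right), with filled points for an adjusted p under 0.05. Fitted values of Sostdc1 and Sp5 (left) and Neurod1 rest on groups with 3 or fewer counts per library. In the left panel 10 of 13 TCF factors and cofactors lie on the lower side with a call. In the right panel 5 of the 13 are called higher: Bcl9l, Tle3, Pygo1, Tcf7l1 and Aes, the last already higher in the left panel. None of these 5 was called on log2(TPM + 1). All but Bcl9l lost the call in some fits with 1 library left out.

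With Igfbp2, 17 of the 71 further genes were higher and 4 lower than in vehicle, against 25.0% of all genes called. This split turned with the scaling, to 6 higher and 15 lower with library totals and to 0 and 16 on log2(TPM + 1). The count of 21 was 12 without vehicle 1, 13 without vehicle 2, 12 without Igfbp2-treated 6 and 32 without WT 11. With the replicate block it was 32 (23 higher and 9 lower). Lrp4, a receptor related to Lrp5 and Lrp6, had 168, 175, 159.6 and 199 CPM in vehicle and 305, 409.7, 342 and 447 in treated libraries (log2 fold change 1.1 ± 0.23, adjusted p = 0.00595). Celsr2 and Celsr1 rose with it, from 87.6, 97.9, 82.9 and 114 to 160.5, 227, 200.3 and 208 for Celsr2 (log2 fold change 1.06 ± 0.21, adjusted p = 0.00402) and from 26.3, 27, 28.8 and 35.6 to 44.4, 70.8, 55.8 and 70.5 for Celsr1 (log2 fold change 1.04 ± 0.15, adjusted p = 0.00105). None of these 3 genes overlapped between the groups. With library totals all 3 were called higher, at 0.823 (adjusted p = 0.0186) for Lrp4, 0.785 (adjusted p = 0.0146) for Celsr2 and 0.761 (adjusted p = 0.00244) for Celsr1. On log2(TPM + 1) all 3 stayed positive and none was called, with 0.55 (adjusted p = 0.109) for Lrp4, 0.42 (adjusted p = 0.236) for Celsr2 and 0.39 (adjusted p = 0.0814) for Celsr1. Daam2 (log2 fold change 0.77 ± 0.20, adjusted p = 0.0143) and Ror2, a receptor for Wnt5a (log2 fold change 0.73 ± 0.16, adjusted p = 0.00788), were higher too. With library totals Daam2 was not called, at 0.49 (adjusted p = 0.0617), and Ror2 was, at 0.465 (adjusted p = 0.0445). On log2(TPM + 1) neither was called, at 0.20 (adjusted p = 0.426) for Daam2 and 0.17 (adjusted p = 0.347) for Ror2. The 4 lower genes were Tle2 (log2 fold change −0.46 ± 0.13, adjusted p = 0.0237), Amer1 (log2 fold change −0.43 ± 0.10, adjusted p = 0.00848), Daam1 (log2 fold change −0.32 ± 0.10, adjusted p = 0.0443) and Wls. With 1 library left out, the calls of Tle2 (adjusted p up to 0.0794), Daam1 (up to 0.114), Wls (up to 0.0742), Porcn (up to 0.0989) and Tcf7l1 (up to 0.0838) were lost. Tcf7l1 stood at 0.36 ± 0.09 (adjusted p = 0.0138) with TMM and at −0.16 (adjusted p = 0.387) on log2(TPM + 1). Tcf7l2 stood at 0.26 ± 0.18 (adjusted p = 0.304), and at −0.01 (adjusted p = 0.963) with library totals. Ctnnb1 stood at −0.11 ± 0.09 (adjusted p = 0.367), and was called lower with library totals, at −0.39 (adjusted p = 0.01).

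Against WT, 19 of the 71 further genes were higher and 30 lower in Igfbp2-treated Ncf1-/- NSCs, a split of 12 and 44 on log2(TPM + 1). Among all genes 31.6% were called higher and 30.8% lower, and on log2(TPM + 1) their median log2 fold change was −0.25. The largest rises were those of Igfbp4 (log2 fold change 4.05 ± 0.37, adjusted p = 1.32e-06), Shisa3 (log2 fold change 3.94 ± 0.37, adjusted p = 1.89e-06) and Ccnd1 (log2 fold change 3.7 ± 0.22, adjusted p = 4.95e-08), followed by Dact1 (log2 fold change 1.73 ± 0.20, adjusted p = 8.76e-06) and Tle2 (log2 fold change 1.72 ± 0.14, adjusted p = 6.15e-07). The largest falls were those of Prickle1 (log2 fold change −3.93 ± 0.48, adjusted p = 1.39e-05), Tcf7l2 (log2 fold change −2.18 ± 0.18, adjusted p = 8.25e-07), Tcf7l1 (log2 fold change −1.69 ± 0.09, adjusted p = 2.77e-08) and Celsr1 (log2 fold change −1.4 ± 0.15, adjusted p = 5.49e-06), with the corepressor gene Tle4 next (log2 fold change −1.31 ± 0.10, adjusted p = 2.56e-07). Without WT 11 and WT 12 the differences were 5.08 (adjusted p = 1.11e-12) for Igfbp4, 4.83 (adjusted p = 2.31e-11) for Shisa3 and −4.64 (adjusted p = 1.91e-11) for Prickle1, and without WT 11 alone 4.83 (adjusted p = 6.21e-11) for Shisa3. Of the 49 calls, 44 held without WT 11, without WT 12 and without both. Only called genes averaging 1 CPM or more, and with groups that did not overlap, were ranked.

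Beside the members that rose with Igfbp2, 2 marker lists other than the sex-linked genes also differed between treated and vehicle libraries without overlap and upward. The 8 mesenchymal and meningeal markers summed to 41.5 to 53.6 CPM in treated and 19.3 to 28.5 in vehicle libraries (exact permutation test, two-sided p = 0.0286, the smallest that 4 against 4 allows), with 4 called higher and Lum at no more than 1 count. Most of this sum was Foxc1 (17.2 to 30.2 CPM in treated and 8.45 to 14.5 in vehicle) and Acta2 (11.3 to 14.45 and 5.49 to 6.87). Col3a1 overlapped between the groups (2.5 to 4.6 and 2.2 to 3.4 CPM), and Dcn had at most 4 counts. The 5 ependymal and choroid plexus markers summed to 55.3 to 78.2 and 30.5 to 37.4 CPM (the same p), nearly all of it Foxj1, with Tmem212 at 0 counts. The 7 neuron markers summed to 432 to 460 in treated and 483 to 547 CPM in vehicle libraries. The part of these cell types in the results was not tested.

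Some values can hold reads of a neighbour, since it is not stated whether counting used the strand. Wnt5b overlaps the gene Fbxl14 on the opposite strand over 2963 bases (at most 806 counts of Fbxl14 in a library), Wnt7b overlaps AU022754 over 2222 bases (at most 70 counts) and Wnt5a overlaps Gm2670 over 3319 bases (at most 67.4 counts). Their levels are uncertain to that extent.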

How the data were processed

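RNA of 12 cultures was sequenced after rRNA depletion, and reads were mapped by the authors with Bowtie2 and quantified with RSEM (genome GRCm38 per the labels). The versions, the annotation release and whether counting used strand are not given in the sources used here. The deposited expected counts are RSEM estimates and need not be whole (15.9% of them were not), so they were rounded. The deposited TPM values, scaled by effective length and to a common sum per library, were used for alternatives. A merged table by the authors holds a score made from TPM, used here only for its gene symbols, and columns of FPKM values and of the authors' own comparisons were not used.

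The edgeR quasi-likelihood test (edgeR 4.0.16, R 4.3.3) was fitted to all 12 libraries in 3 groups with TMM scaling, filterByExpr (about 0.478 CPM) and Benjamini-Hochberg adjustment over 15706 genes. DESeq2 1.42.0 and limma 3.58.1 on log2(TPM + 1) and log2(TPM + 0.1) served as alternatives, with library totals, no filter, only the compared groups, a stricter threshold, a replicate block and each library left out in turn. Fitting was tested on simulated data with few changed genes, evenly up and down. Such data cannot judge the scaling, as here far more genes differed. The study describes vehicle and treated cultures as pairs from 4 animals, and pairs were taken here by library order. Same-pair deviations correlated at −0.0673 to 0.0328, other pairs at −0.248 to 0.257. Library totals were 18201622 to 34086554. p-values measure the spread between cultures. Whether this is a spread between animals could not be checked for the vehicle libraries, which held Y-linked and Xist RNA together. Marker sums were compared with exact permutation tests. Every tested member was named, and of 80 further pathway genes up to 5 rises and 5 falls a comparison, plus Ctnnb1, Tcf7l1, Tcf7l2, Porcn and Wls. The members, gene lists and tests were chosen with earlier results of these data known. Promoter windows came from RefSeq (GRCm38.p6) and gene positions from GENCODE vM21 (GRCm38).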

Additional observations from a re-analysis of the deposited data

Results flagged for a closer look

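In 8 of 99 groups of 4 libraries, each 1 tested member in 1 group, a single library lay apart by Dixon's criterion, which chance meets in about 1 of 20 groups. Values are TMM-scaled CPM. In WT 11, Fzd3 stood at 213.3 against 138.9 to 149.1 in the other WT libraries, and Fzd9 at 75.92 against 20.88 to 29.17. In vehicle 4, Lrp6 stood at 87.64 against 56.59 to 61.1, Fzd5 at 34.88 against 26.7 to 27.58 and Nkd1 at 35.18 against 38.46 to 38.99. In vehicle 3, Wnt9a was at 1.015 against 0.4354 to 0.5227. Among the Igfbp2-treated libraries, Tcf7 was at 7.938 in library 7 against 5.289 to 5.593, and Fzd3 at 102.4 in library 5 against 125.4 to 128.7.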

How the results depend on the processing

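Between the genotypes the count of 24 called members stayed within 1.5 times that number except on log2(TPM + 1) without a filter (14, with 10 higher and 4 lower). Against WT, the count of 28 in Igfbp2-treated cultures stayed within that range throughout. The Igfbp2 comparison depended on the processing. Its 11 members became 6 with library totals, 6 on log2(TPM + 1), 4 on log2(TPM + 0.1), 3 on log2(TPM + 1) without a filter, 17 with only the 2 groups compared, 18 without WT 11 and WT 12 and 4 at an adjusted p under 0.01. Leaving out 1 library gave 5 to 17. The 21 further pathway genes became 32 with only the 2 groups compared, 12 on log2(TPM + 1) without a filter, 33 without WT 11 and WT 12 and 9 at an adjusted p under 0.01, and 12 to 32 with 1 library left out. The cause was not tested. With culture pairs taken by library order as a replicate block, 16 members and 32 further pathway genes were called, with WT not in that fit. Of the 11 members, 5 stayed called with each library left out (Lrp5, Lrp6, Wnt7a, Wnt4 and Fzd1), but 0 of the 11 were called with each library left out and under all 8 other settings, against 13 of 24 between the genotypes and 14 of 28 against WT, where 6 or 7 other settings a gene were run. Counts with libraries left out include Rspo1 where it passed the filter.

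Log2 fold changes of opposite sign to the reported one were as follows, and the cause was not tested. In the Igfbp2 comparison, log2(TPM + 1) gave Axin2 −0.289, Tcf7 −0.104, Fzd3 −0.227, Wnt5a −0.161, Fzd6 −0.106, Wnt7b −0.187, Wnt2b −0.088, Sfrp2 −0.123, Wnt7a −0.006, Wnt5b −0.322, Dkk3 −0.269, Sfrp1 −0.214, Rnf43 −0.292, Znrf3 −0.054 and Fzd2 −0.07, with the same values without a filter, and log2(TPM + 0.1) gave Axin2 −0.311, Tcf7 −0.172, Fzd3 −0.239, Wnt5a −0.176, Fzd6 −0.26, Wnt7b −0.192, Wnt2b −0.374, Sfrp2 −0.156, Wnt7a −0.007, Wnt5b −0.367, Dkk3 −0.277, Sfrp1 −0.322, Rnf43 −0.559, Znrf3 −0.062 and Fzd2 −0.081. Library totals gave Axin2 −0.135, Fzd3 −0.044, Fzd6 −0.11, Wnt2b −0.243, Wnt5b −0.154, Dkk3 −0.068, Sfrp1 −0.122 and Rnf43 −0.265. DESeq2 gave Rnf43 −0.007, the 2 groups alone Wnt2b −0.017 and Rnf43 −0.043, the replicate block Wnt2b −0.03 and Rnf43 −0.033, and the fit without WT 11 and WT 12 Wnt2b −0.005 and Rnf43 −0.031. With 1 library left out, the ranges that crossed 0 were Axin1 −0.106 to 0.002, Wnt2b −0.098 to 0.164 and Rnf43 −0.12 to 0.099. Between the genotypes, library totals gave Dkk3 0.044 and Fzd1 0.098, log2(TPM + 1) Dkk3 0.14 with and without a filter, log2(TPM + 0.1) Dkk3 0.155, the fit without WT 11 and WT 12 Dkk3 0.912, and leaving out 1 library Dkk3 −0.369 to 0.191 and Fzd4 −0.087 to 0.172. For Igfbp2-treated cultures against WT, library totals gave Dkk3 −0.024, log2(TPM + 1) Dkk3 −0.128 with and without a filter, log2(TPM + 0.1) Dkk3 −0.122, the fit without WT 11 and WT 12 Fzd2 0.193, and leaving out 1 library Dkk3 −0.19 to 0.402 and Fzd2 −0.166 to 0.132. Depth limits the 19 members that were not tested and the calls of Notum, Wnt6, Rspo3 and Wnt2b. The choice to leave out WT 11 and WT 12 together was made after seeing the data.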
